A study of Mus musculus with 9 samples.

Results

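Transcript levels of 8 transcription factors that pattern the dorsal telencephalon (Emx1, Emx2, Lhx2, Pax6, Gli3, Dmrta2, Nr2f1 and Sp8) were followed across the ISWI genotypes of the embryonic mouse cortex. The genes were picked as a named set, with earlier results of these data known, so counts of members set beside all genes are a description. They are 8 of the 35498 genes to which the deposited transcript counts were summed, and all 8 passed the filter on low counts. The study removed Smarca1 (SNF2L) and Smarca5 (SNF2H), the ATPases of the ISWI complexes, which slide and space nucleosomes, and asked about their part in neocortical development.

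RNA came from whole cortical tissue of C57Bl/6 embryos at E13.5, with 3 libraries in each of 3 groups. Wild-type (WT) embryos were Smarca1 +/+; Cre -/-, the single mutant (Smarca1 KO) was Smarca1 -/-; Cre -/-, and the double mutant (DKO) was Smarca1 -/-; Cre +/-. The series' design text names the DKO as lacking both Smarca5 and Smarca1. Which driver the Cre used, which exons it removed and what Smarca5 genotype WT and Smarca1 KO had is not given in the sources used here. Both mutant groups lacked Smarca1, and only the DKO carried Cre, so Cre carriage and Smarca5 loss cannot be told apart. Regulatory sequence of Emx1 is widely used to drive Cre in the cortex, and whether it was used here is not given. If the Cre sat in the Emx1 gene, Emx1 RNA in DKO, the group with the Cre, would also reflect that allele, and the 2 could not be told apart. Nothing in the labels ties each library to its own embryo, so p-values measure library-to-library spread, which may be technical.

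As background, the dorsal telencephalon (pallium) becomes cortex under signals from its edges: FGFs at the rostral pole, Wnts and BMPs from the cortical hem at the dorsal midline, and hedgehog from ventral tissue. Transcription factors in the dividing radial glia turn these signals into position. Lhx2 is the selector that keeps cells from becoming hem, Dmrta2 and the Emx homeodomain proteins support cortical and medial identity, and Pax6 and Gli3 hold the border with the ventral telencephalon. Gli3 does so chiefly as a repressor of hedgehog targets. Emx2 (high caudally), Pax6 (high rostrally), Nr2f1 (COUP-TFI, high caudally) and Sp8 (high rostrally) set the sizes of cortical areas. Sp8 is also made by ventral progenitors and by some interneurons, and Nr2f1 is also made outside the pallium.

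Library totals over genes were 27466046 to 46007527 counts, and the scarcest member, Sp8, had at least 679 counts in a library. Levels are counts scaled to library size with TMM factors (CPM), and a gene is called at an adjusted p under 0.05. Across libraries Smarca5 was at 262 to 271 CPM (WT), 212 to 246 CPM (Smarca1 KO) and 77.2 to 84.4 CPM (DKO), so that in DKO against Smarca1 KO it fell by 1.54 on the log2 scale (SE 0.061, adjusted p = 2.99e-06). Smarca1 RNA was 36.4 to 37.8 CPM in WT and 35.3 to 43.8 CPM in Smarca1 KO, so its level is no check of the genotype (RNA outside deleted exons can persist). Libraries stood apart in markers of other cells. Smarca1 KO replicate 1 and DKO replicate 1 had the highest summed meninges markers (578 and 632 CPM, against 234 to 263 CPM in the other mutant libraries and 412 to 500 CPM in WT). Smarca1 KO replicate 3 had the lowest summed markers of dividing cells (1336 CPM, against 1584 to 1895 CPM elsewhere). Results that turn on these libraries are given with and without them.

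The 8 genes lie on 6 chromosomes in GENCODE M21 (GRCm38). Emx1 (ENSMUSG00000033726) spans chr6:85187438-85204462 and Emx2 (ENSMUSG00000043969) spans chr19:59458372-59465357. Lhx2 (ENSMUSG00000000247) spans chr2:38339281-38369733 and Pax6 (ENSMUSG00000027168) spans chr2:105668900-105697364. Gli3 (ENSMUSG00000021318) spans chr13:15463235-15730026, and Nr2f1 (ENSMUSG00000069171) is the only minus-strand member, at chr13:78188973-78199757. Dmrta2 (ENSMUSG00000047143) spans chr4:109978053-109983687 and Sp8 (ENSMUSG00000048562) spans chr12:118846329-118852576. At most 0.904% of the 31-base words of a member were found in another gene. Opposite-strand genes share exonic bases with Emx2 (Emx2os), Nr2f1 (A830082K12Rik) and Gli3 (Gm6556). None of these partners was in the tables, and whether counting used strand is not known, so their reads cannot be told apart from those of the member.

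The promoters of Lhx2, which in DKO fell against WT by more than any member except Emx1, and of Sp8, the only member that rose, are shown as examples of the start regions of members called in opposite directions. Each window is the 250 bases before a RefSeq start (GRCm38.p6, plus strand), chr2:38339031-38339280 for Lhx2 and chr12:118846079-118846328 for Sp8. Capitals mark GGGCGG (a GC box), TATAAA and CCAAT, searched on both strands.
Lhx2 promoter: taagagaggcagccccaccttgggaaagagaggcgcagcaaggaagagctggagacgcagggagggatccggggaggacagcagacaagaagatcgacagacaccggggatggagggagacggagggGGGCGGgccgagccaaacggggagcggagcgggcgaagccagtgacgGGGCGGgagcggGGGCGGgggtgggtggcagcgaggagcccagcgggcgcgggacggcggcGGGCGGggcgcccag
Sp8 promoter: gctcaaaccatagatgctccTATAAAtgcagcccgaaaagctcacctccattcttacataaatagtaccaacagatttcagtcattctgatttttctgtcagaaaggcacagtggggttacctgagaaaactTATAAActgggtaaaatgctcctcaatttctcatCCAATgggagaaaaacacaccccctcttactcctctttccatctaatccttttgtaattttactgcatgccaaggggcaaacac
The Lhx2 window was 72.8% G or C and held 4 GGGCGG words, with no TATAAA and no CCAAT. The Sp8 window was 40.8% G or C and held 2 TATAAA words and 1 CCAAT, with no GGGCGG. Of 32851 RefSeq windows of 250 bases, 32.7% held GGGCGG, 12.4% held TATAAA and 33.8% held CCAAT. These words describe 1 start each. The Lhx2 start is that of a coding transcript with 19.1% of Lhx2 TPM in WT, and neither RefSeq window lies at the start of the main Lhx2 transcript (60.7%). The window of the further RefSeq start of Lhx2 was 68.4% G or C with no GGGCGG. Of the 2 further Sp8 windows, 1 was 67.2% G or C with 1 GGGCGG and no TATAAA, and the other had neither word. All 8 members matched the RefSeq promoter table.

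Per length, Lhx2 and Nr2f1 were the most abundant members in WT. Levels scaled for transcript length and library size (TPM), summed over a gene, were 387 ± 18.6 for Lhx2 and 386 ± 10.2 for Nr2f1 (SD, n = 3), and the libraries of the 2 genes overlapped. Below them came Pax6 (139 ± 3.41 TPM), Emx1 (117 ± 2.57 TPM), Emx2 (92.7 ± 4.28 TPM), Dmrta2 (66.9 ± 1.23 TPM), Gli3 (36.1 ± 1.03 TPM) and Sp8 (14.9 ± 1.1 TPM), and none of these neighbours overlapped in WT. The order was not the same in the mutants. In DKO, Nr2f1 (339 ± 17.2 TPM) lay above Lhx2 (252 ± 15.5 TPM) with no overlap, and Emx1 (75.7 ± 4.88 TPM) overlapped Emx2 (72.7 ± 7.71 TPM).

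In DKO against WT, 6 of the 8 members were called: Emx1, Lhx2, Gli3, Dmrta2 and Nr2f1 fell and Sp8 rose. Of the 15773 genes tested, 12% were called in this comparison (5.61% rose and 6.35% fell). The members' median log2 fold change was -0.37, beside 0.01 over all genes tested. The DKO and WT libraries did not overlap for any of the 8 members. Of all genes tested, 41.3% likewise did not overlap. Among the members 7 of the 8 lay wholly below WT. In Smarca1 KO too, 7 of the 8 members lay wholly below WT, and of all genes tested 26.1% had groups that did not overlap, in either direction. Only Nr2f1 was called there (background 0.336%, with 0.139% that rose and 0.197% that fell), and the median log2 fold change was -0.38 beside 0.01 over all genes. In DKO against Smarca1 KO, Emx1 fell and Sp8 rose, so 2 of 8 were called against a background of 4.39% (1.73% rose and 2.66% fell). Here the groups of 3 members did not overlap (Emx1, Nr2f1 and Sp8), against 20.5% of all genes tested. The 3 comparisons share libraries, so their values are set side by side and not treated as separate evidence.

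**Figure D1:**
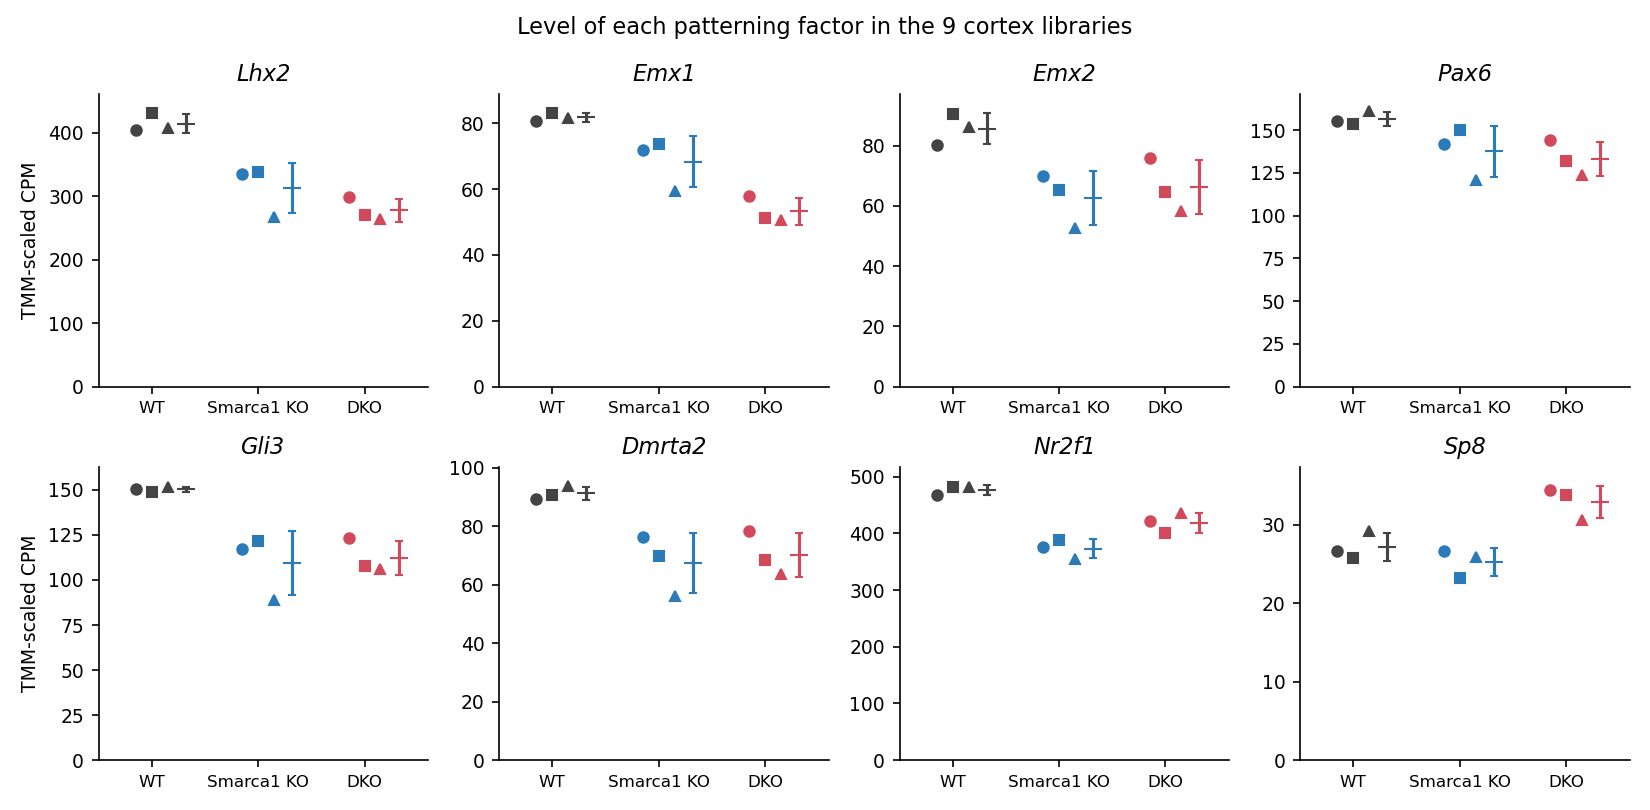
TMM-scaled CPM (linear axes from 0) of each member in the 9 libraries, with circles, squares and triangles for replicates 1, 2 and 3 and a bar for mean ± SD (n = 3). All members except Sp8 sit lower in all 3 DKO libraries than in any WT library, while Sp8 is highest in DKO.

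**Figure D2:**
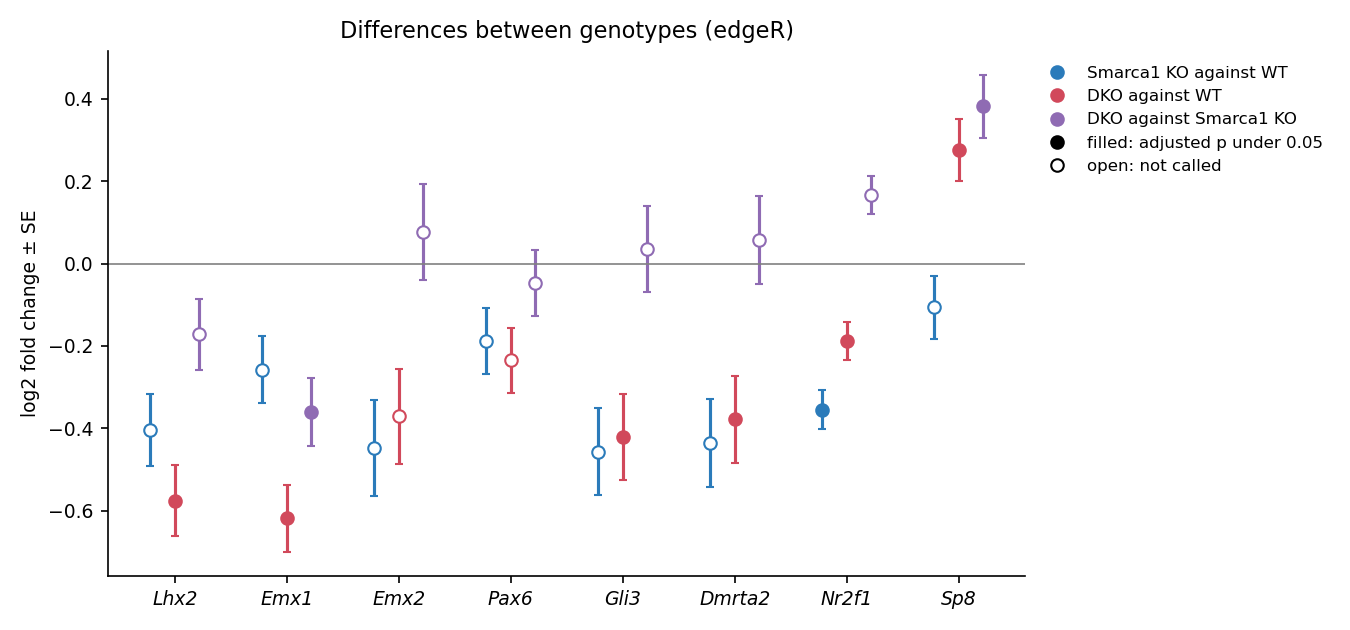
log2 fold change ± SE from edgeR for each member in the 3 comparisons, filled where the adjusted p was under 0.05. Emx1 and Lhx2 lie lowest in DKO against WT, and only Emx1 and Sp8 are filled in DKO against Smarca1 KO.

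Lhx2, the cortical selector, was 404, 431 and 408 CPM in WT replicates 1 to 3, 335, 337 and 267 CPM in Smarca1 KO, with 299, 271 and 265 CPM in DKO. All 6 mutant libraries lay below WT, and the DKO libraries overlapped Smarca1 KO only through Smarca1 KO replicate 3. Lhx2 fell in DKO against WT by 0.58 on the log2 scale (SE 0.086, adjusted p = 0.00553), a level lower by 32.9%. The other differences were not called: -0.40 in Smarca1 KO against WT (adjusted p = 0.0928) and -0.17 in DKO against Smarca1 KO (adjusted p = 0.335). Without Smarca1 KO replicate 3, the last became -0.28 and was called (adjusted p = 0.0269).

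Dmrta2, a DM-domain factor needed for medial cortex and hem, was 89.3, 90.6 and 93.6 CPM in WT, 76.1, 69.8 and 56.0 CPM in Smarca1 KO, with 78.3, 68.6 and 63.6 CPM in DKO. Both mutant groups lay below WT and overlapped each other. Dmrta2 fell in DKO against WT by 0.38 (log2, SE 0.106, adjusted p = 0.0477), and gave -0.44 in Smarca1 KO against WT (adjusted p = 0.121) and 0.057 in DKO against Smarca1 KO (adjusted p = 0.840). The call in DKO was the nearest to the threshold among the members. It was not made without Smarca1 KO replicate 2, DKO replicate 2, DKO replicate 3 or any 1 WT library (adjusted p = 0.0548 to 0.152). Nor was it made with scaling to library totals alone (adjusted p = 0.0614) or with effective-length offsets (adjusted p = 0.0762).

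Emx2, the caudomedial homeodomain factor, was 80.2, 90.5 and 86.1 CPM in WT, 70.0, 65.3 and 52.6 CPM in Smarca1 KO, with 75.8, 64.6 and 58.2 CPM in DKO. It was lower than WT in all 6 mutant libraries, and the mutant groups overlapped. No comparison was called: -0.37 in DKO against WT (SE 0.116, adjusted p = 0.0652), -0.45 for Smarca1 KO over WT (adjusted p = 0.134) and 0.077 in DKO against Smarca1 KO (adjusted p = 0.792). Without DKO replicate 1, the highest DKO library, DKO against WT was -0.48 and called (adjusted p = 0.0307). It was also called without Smarca1 KO replicate 3 (adjusted p = 0.0207), without replicate 1 of both mutants (0.0181), with effective-length offsets (0.0400), with only the 2 groups in the fit (0.0251) and by DESeq2 (0.0172).

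Emx1, its paralogue and a pallial marker, was 80.6, 83.1 and 81.6 CPM in WT, 71.8, 73.8 and 59.4 CPM in Smarca1 KO, with 57.9, 51.2 and 50.7 CPM in DKO. The 3 groups formed 3 steps with no overlap between any of them. Emx1 fell by 0.62 in DKO against WT (log2, SE 0.082, adjusted p = 0.00335), a level lower by 34.9%, and by 0.36 in DKO against Smarca1 KO (SE 0.082, adjusted p = 0.0408). The step from WT to Smarca1 KO was -0.26 and not called (adjusted p = 0.165). The fall against WT was called without each of the 9 libraries in turn. The fall against Smarca1 KO was called only without Smarca1 KO replicate 3 or DKO replicate 1; without any of the other 7 libraries the adjusted p was 0.0721 to 0.140, with log2 differences of -0.30 to -0.36.

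Against WT, the ratio of Emx1 to Emx2 was lower in DKO and higher in Smarca1 KO. It was taken on CPM, which is not scaled for length, so its sign does not rank the 2 genes. In TPM, Emx1 lay above Emx2 in WT and overlapped it in DKO. Within a library, the log2 ratio of Emx1 to Emx2 was 0.0078, -0.12 and -0.078 in WT, 0.036, 0.18 and 0.17 in Smarca1 KO, and -0.39, -0.34 and -0.20 in DKO. Every DKO library was below every WT library, and every Smarca1 KO library above every WT library. The mean difference was -0.44 in DKO against Smarca1 KO, -0.24 in DKO against WT and 0.19 in Smarca1 KO against WT. Each had a two-sided exact permutation p = 0.1, the smallest that 3 libraries against 3 can give, and an adjusted p = 0.159 over 27 ratios, so the design could not reach 0.05.

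The Emx1 counts come from 2 annotated transcripts. GENCODE lists a coding transcript of 3 exons and 1561 bases (ENSMUST00000045942) and a retained-intron transcript of 1258 bases (ENSMUST00000173919, chr6:85193519-85204462) that starts inside intron 1. The 40 bases on either side of the start of exon 2 show where the 2 transcripts differ. Capitals mark exon 2, on the plus strand of GRCm38, where chr6:85194038-85194077 follows the end of exon 1 (chr6:85188324-85188363) in the coding transcript and the end of intron 1 (chr6:85193998-85194037) in the retained-intron transcript.
Emx1 coding transcript: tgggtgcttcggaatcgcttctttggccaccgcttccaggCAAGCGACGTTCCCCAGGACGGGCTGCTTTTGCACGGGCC
Emx1 retained-intron transcript: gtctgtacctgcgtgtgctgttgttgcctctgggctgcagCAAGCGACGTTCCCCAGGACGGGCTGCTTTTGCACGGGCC
Of the retained-intron transcript, 49.5% is absent from the coding one: a 519-base stretch of intron 1 (chr6:85193519-85194037) and 104 bases past the end of exon 3 of the coding transcript (chr6:85204359-85204462). Salmon divided reads of the shared exons between the transcripts, and the tables cannot tell unspliced Emx1 RNA from a separate transcript.

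The retained-intron transcript was 13.7, 15.8 and 16.1 CPM in WT, 12, 14.0 and 11.4 CPM in Smarca1 KO, with 6.47, 7.29 and 5.17 CPM in DKO. The DKO libraries lay far below both other groups, which overlapped each other. In an edgeR fit over 50753 transcripts, run after the values were seen, the retained-intron transcript fell in DKO against WT by 1.27 (log2, SE 0.151, adjusted p = 0.0274). Of all transcripts 0.327% were called in that comparison, and 0.189% fell. In DKO against Smarca1 KO it gave -0.98 (SE 0.151) and was not called (adjusted p = 0.0742, where 0.132% of transcripts were called and 0.0749% fell). Smarca1 KO against WT gave -0.29 (adjusted p = 0.614, where 0.0296% were called and 0.0118% fell).

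The coding transcript was 66.8, 67.3 and 65.2 CPM in WT, 60.5, 59.5 and 48.2 CPM in Smarca1 KO, with 51.7, 44.2 and 45.9 CPM in DKO. It was lower than WT in every DKO library but overlapped Smarca1 KO through Smarca1 KO replicate 3. Its differences were -0.49 in DKO against WT (adjusted p = 0.0969) and -0.25 in DKO against Smarca1 KO (adjusted p = 0.527), neither called over all transcripts. The share of Emx1 TPM given by the retained-intron transcript was 19.96% to 23.07% in WT, 19.14% to 22.21% in Smarca1 KO and 11.86% to 16.41% in DKO. The difference in share, and that between the fold changes of the 2 transcripts, was not tested.

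**Figure D3:**
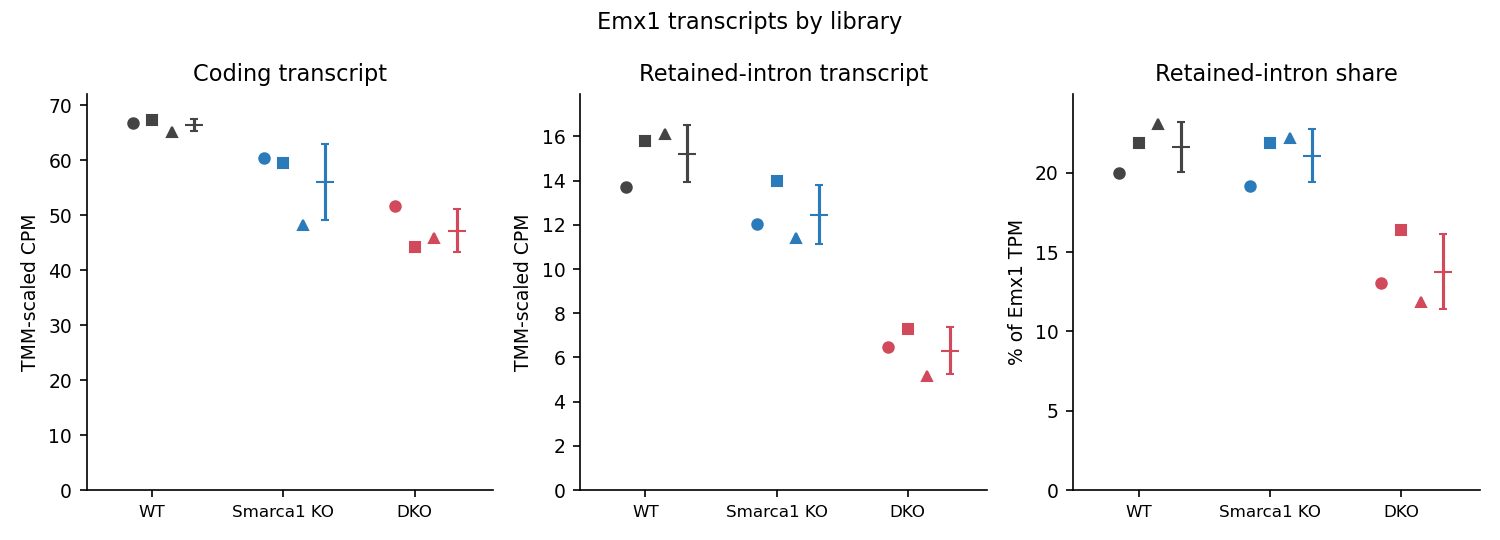
TMM-scaled CPM of the coding and of the retained-intron Emx1 transcript, and the percent of Emx1 TPM held by the latter, in the 9 libraries (symbols by replicate, bars mean ± SD, n = 3). The retained-intron transcript is 5.17 to 7.29 CPM in DKO and at least 11.4 CPM elsewhere.

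Transcripts of the other members were read in the same fit. Among transcripts holding at least 10% of their gene's TPM in a group, none of another member was called in DKO against WT. A minor coding transcript of Lhx2 had the next largest difference from WT, -1.02 (SE 0.242, adjusted p = 0.152), with a mean share of Lhx2 TPM of 11.9% in WT and 8.78% in DKO. The main Lhx2 transcript gave -0.57 (adjusted p = 0.0597) and held 60.7% of Lhx2 TPM in WT and 62.4% in DKO. The main Gli3 transcript held 91.2% to 92.4% of its gene in the group means, and Dmrta2 had 1 transcript in the tables. Pax6 was spread over 26 transcripts, of which none held over 18.2% in a group mean. Coding transcripts of Pax6 took opposite signs in DKO against WT, with -0.46 for ENSMUST00000111083 (adjusted p = 0.293) and 0.29 for ENSMUST00000167211 (adjusted p = 0.447), neither called.

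Pax6, the paired-box factor of the rostrolateral pallium and of radial glia, was 155, 154 and 161 CPM in WT, 142, 150.1 and 121 CPM in Smarca1 KO, with 144, 132 and 124 CPM in DKO. The mutant libraries lay just under WT and overlapped each other. Against WT, Pax6 gave -0.24 in DKO (log2, SE 0.080, adjusted p = 0.0811) and -0.19 in Smarca1 KO (adjusted p = 0.249), and the mutants differed by -0.048 (adjusted p = 0.819). None of these was called, though DKO against WT was without Smarca1 KO replicate 3 (adjusted p = 0.0187).

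Gli3, the hedgehog-pathway repressor, was 150.4, 149 and 152 CPM in WT, 117, 122 and 89.1 CPM in Smarca1 KO, with 123, 107 and 106 CPM in DKO. Its WT libraries were tightly grouped, and all mutant libraries lay below them. Gli3 fell in DKO against WT by 0.42 (log2, SE 0.105, adjusted p = 0.0317). Against WT, Smarca1 KO gave -0.46 (SE 0.105, adjusted p = 0.104) and 0.035 between the mutants (adjusted p = 0.908). The call in DKO was not made without DKO replicate 2, DKO replicate 3 or any 1 WT library (adjusted p = 0.0902 to 0.111).

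Nr2f1, the caudal area regulator, was 467, 483 and 482 CPM in WT, 377, 388 and 355 CPM in Smarca1 KO, with 421, 400.2 and 435 CPM in DKO. Smarca1 KO was lowest, DKO lay between, and no 2 groups overlapped. Emx2, Gli3 and Dmrta2 had the same order of group means, with mutant groups that overlapped. Nr2f1 fell in Smarca1 KO against WT by 0.35 (log2, SE 0.047, adjusted p = 0.0158), a level lower by 21.8%, and it ranked 22nd by p among all genes there. It fell in DKO against WT by 0.19 (SE 0.046, adjusted p = 0.0313), a call not made without DKO replicate 2, DKO replicate 3 or any 1 WT library (adjusted p = 0.0592 to 0.110). This call was also not made with effective-length offsets (adjusted p = 0.102). The step up from Smarca1 KO to DKO was 0.17 and not called (SE 0.046, adjusted p = 0.0805). The call in Smarca1 KO was lost when any 1 WT library was left out (adjusted p = 0.0569 to 0.113, log2 difference -0.35 to -0.37).

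Sp8, the rostral zinc-finger factor, was 26.7, 25.7 and 29.2 CPM in WT, 26.6, 23.2 and 25.9 CPM in Smarca1 KO, with 34.4, 33.8 and 30.6 CPM in DKO. In CPM every DKO library exceeded every other library, and WT and Smarca1 KO overlapped. In TPM, which also scales for transcript length, DKO (15.4 to 19.6 TPM) overlapped both WT (14.1 to 16.2 TPM) and Smarca1 KO (12.1 to 15.7 TPM). For the main Sp8 transcript DKO (13.49 to 15.06 TPM) overlapped neither WT (11.21 to 12.5 TPM) nor Smarca1 KO (9.74 to 11.48 TPM). In the transcript fit it was called neither against WT (adjusted p = 0.198) nor against Smarca1 KO (adjusted p = 0.165). The other Sp8 transcript had only 19.4 to 42.2 counts in a library, yet 12.4% to 28.7% of Sp8 TPM. Its part in the results with effective-length offsets was not tested. Sp8 rose by 0.38 in DKO against Smarca1 KO (log2, SE 0.076, adjusted p = 0.0243), a level higher by 30.4%, and by 0.28 in DKO against WT (SE 0.076, adjusted p = 0.0451). Smarca1 KO against WT was -0.11 and not called (adjusted p = 0.474). The rise against Smarca1 KO was not called without Smarca1 KO replicate 2, DKO replicate 1 or DKO replicate 2 (adjusted p = 0.0658 to 0.0869). The rise against WT was not called without any 1 of the DKO or WT libraries (adjusted p = 0.0635 to 0.158), without replicate 1 of both mutants (0.0757) or with no filter on low counts (0.0509). With effective-length offsets Sp8 was called neither against WT (adjusted p = 0.202) nor against Smarca1 KO (adjusted p = 0.187).

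For the whole set, the count called in DKO against WT was 2 (Emx1 and Lhx2) without DKO replicate 2, DKO replicate 3 or any 1 WT library, when calls among all genes fell to 450 to 715 from 1887. With the 2 meninges-rich libraries (replicate 1 of each mutant) left out, it was 7 (all but Sp8). It was 8 without Smarca1 KO replicate 3, with only the 2 groups in the fit and by DESeq2. In Smarca1 KO against WT, 5 members were called without those 2 libraries and 5 with DESeq2 (Emx2, Lhx2, Gli3, Dmrta2 and Nr2f1 in each, all lower), while calls among all genes were 607 and 693 in place of 53. In DKO against Smarca1 KO, neither Emx1 nor Sp8 was called by edgeR with effective-length offsets, with only those 2 groups in the fit or without those 2 libraries. With the mean level of Y-linked genes as a covariate, edgeR called 0 members and 6 of all genes in DKO against WT. That covariate itself followed group (R2 = 0.771), so the 2 cannot be told apart. It spanned only 5.80 to 6.00 (mean log2 CPM) over the 9 libraries. Of its 4 genes, Ddx3y was itself called lower in DKO against WT (-0.26).

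Markers of the progenitors that make these factors were also lower in the mutants than in WT. Summed radial glia markers were 4747 to 4774 CPM across WT libraries, 4135 to 4419 CPM across Smarca1 KO and 4283 to 4511 CPM across DKO. Summed markers of dividing cells were 1853 to 1895 CPM, 1336 to 1812 CPM and 1584 to 1836 CPM in the same order. Smarca1 KO replicate 3, lowest in dividing-cell markers, was also the lowest Smarca1 KO library for 7 of the 8 members. In whole tissue, fewer cells of a type and less RNA per cell cannot be told apart. Of 18 radial glia genes, 6 fell and 2 rose in DKO against WT, with a median log2 fold change of -0.20. Among them the glutamate transporter Slc1a3 rose by 0.43, while Hes1, a Notch effector, fell by 0.53 and the RNA-binding protein Msi1 fell by 0.36. In Smarca1 KO against WT, the receptor Notch1 fell (-0.31, adjusted p = 0.0387) and the other 17 were not called by edgeR. The median there was nonetheless -0.23, with 15 of the 18 genes below 0 and 3 above. Before adjustment, the edgeR p was below 0.05 for 14 of them. With DESeq2 there were 9 calls in Smarca1 KO against WT (1 a rise) and 12 in DKO against WT (2 of them rises). None of 8 genes of dividing cells was called by edgeR or DESeq2 in any comparison, and 3 had an unadjusted p under 0.05, all in Smarca1 KO against WT.

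Each member was also divided by the mean of the radial glia list within its library. For Emx1 the log2 ratio was -1.28, -1.24 and -1.29 in WT, -1.31, -1.29 and -1.45 in Smarca1 KO, and -1.65, -1.81 and -1.75 in DKO. DKO lay below both groups, by 0.47 against WT and 0.39 against Smarca1 KO on average, while WT and Smarca1 KO overlapped. For Sp8 the ratio was higher in DKO by 0.43 against WT and 0.35 against Smarca1 KO, with no overlap. For Lhx2 the ratio was 1.04, 1.13 and 1.03 in WT, 0.91, 0.91 and 0.716 in Smarca1 KO, and 0.715, 0.59 and 0.63 in DKO. It was lower in DKO by 0.42 against WT with no overlap and by 0.20 against Smarca1 KO, where DKO replicate 1 and Smarca1 KO replicate 3 all but met. By contrast, the Pax6 ratio overlapped between all pairs of groups (-0.082 in DKO against WT), and the Nr2f1 and Emx2 ratios in DKO overlapped WT (-0.033 and -0.22). In Smarca1 KO both lay below WT with no overlap (by 0.17 and 0.27), and the Nr2f1 ratio was higher in DKO than in Smarca1 KO by 0.13, also with no overlap. The Gli3 and Dmrta2 ratios lay below WT in all mutant libraries (differences of -0.23 to -0.28) and overlapped between the mutants. Every pair of groups without overlap had a two-sided exact permutation p = 0.1 and an adjusted p = 0.159.

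**Figure D4:**
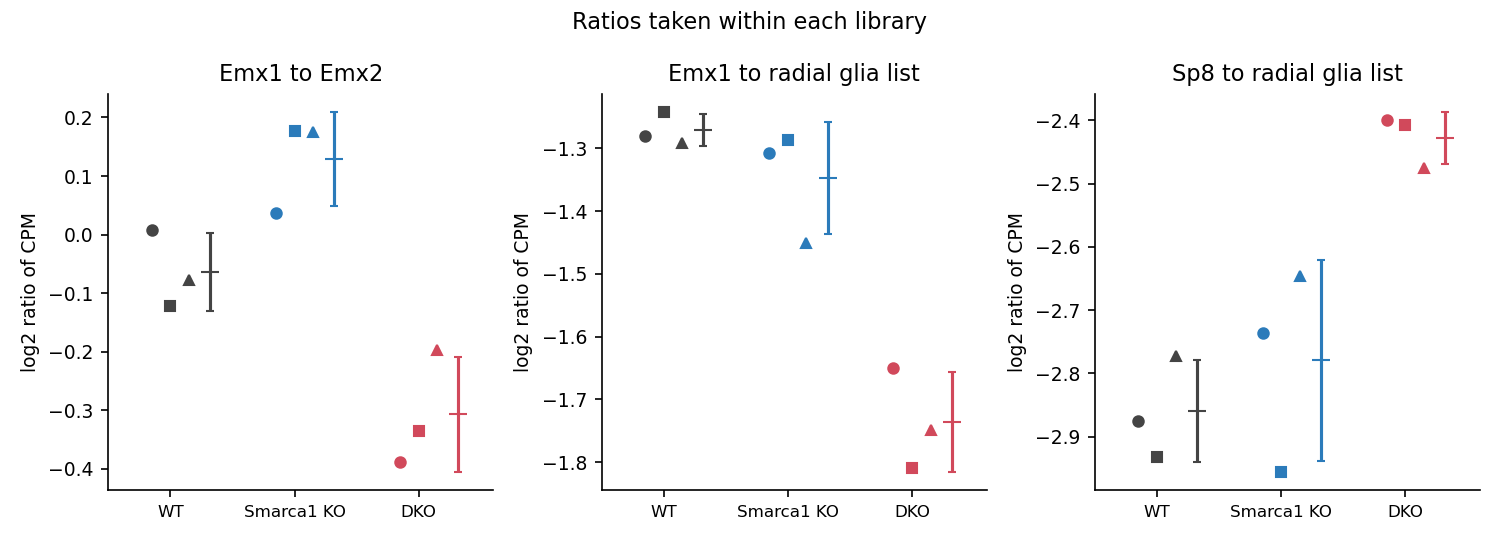
log2 ratios taken within each library (symbols by replicate, bars mean ± SD, n = 3, axes not from 0): Emx1 to Emx2, and Emx1 and Sp8 to the mean log2 CPM of 18 radial glia genes. DKO lies below the other groups in both Emx1 panels and above them in the Sp8 panel.

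**Figure D5:**
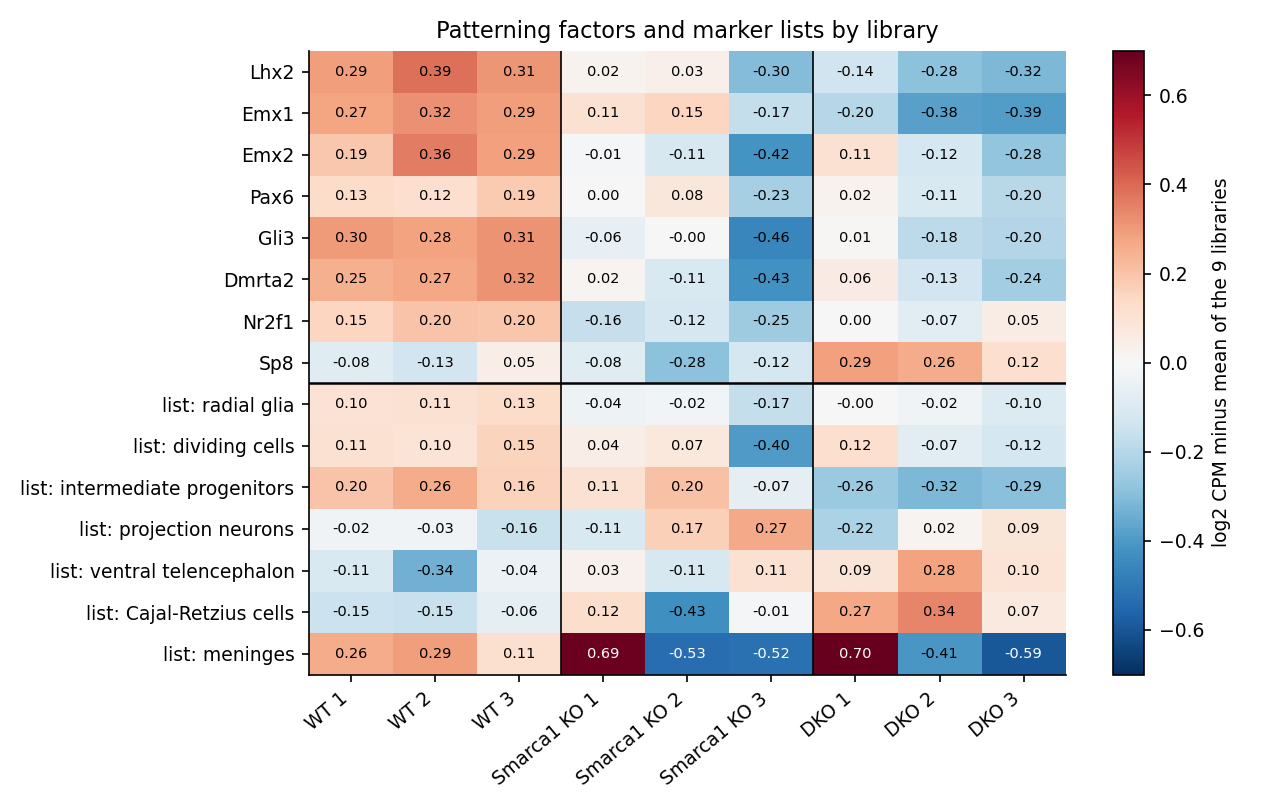
log2 CPM minus the mean of the 9 libraries for the 8 members (above the line) and as list means for marker lists (below it), red for higher and blue for lower. WT is high for 7 members, Smarca1 KO replicate 3 is low for most, and Sp8 is high in the 3 DKO libraries. The ventral telencephalon list is above its mean in those 3 and in Smarca1 KO replicates 1 and 3.

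Genes whose centred log2 CPM followed a member most closely over the 9 libraries were found among all genes tested, by the root mean square (RMS) difference. Emx1 was followed most closely by Neurog2, a proneural factor of cortical progenitors (RMS 0.041), then Ttyh1 (0.048) and Nek11 (0.056). Neurog2 fell by 0.55 in DKO against WT. For Lhx2 they were Hes1 and Erbb2 (both 0.058) and Xkr5 (0.061). For Gli3 they were Pole, a replicative DNA polymerase subunit (0.035), the progenitor receptor Nr2e1 (0.038) and Kntc1 (0.050), and for Dmrta2 they were Dach1 (0.046), Pole (0.049) and Shmt1 (0.051). Nr2f1 had Ift27 (0.056), Coro2b (0.057) and Ptgfrn (0.058), and Sp8 had Fut8 (0.061), Wipi1 (0.063) and Sema6a (0.065). Between members, which that search left out, Emx2 and Dmrta2 were closest (0.043), closer than Dach1 was to Dmrta2. Gli3 and Dmrta2 followed (0.055), and Emx1 and Sp8 were farthest apart (0.411).

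Other pallial patterning and area genes moved in both directions. Of 23, 7 fell and 3 rose in DKO against WT (median -0.080), 3 fell and 1 rose in DKO against Smarca1 KO, and none was called by edgeR in Smarca1 KO against WT (8 at an unadjusted p under 0.05, and 5 called by DESeq2). Fezf2, which directs subcerebral neuron fate, fell in DKO by 0.45 against WT and 0.51 against Smarca1 KO. Tfap2c, a factor of basal progenitors, fell by 0.46 and 0.23. Lmo4, an area-restricted LIM cofactor, rose against WT by 0.32, and Nfia fell against Smarca1 KO by 0.35. Of 9 tested close relatives of the members, Gli2 (-0.36) and Dmrta1 (-0.64) fell in DKO against WT. Some of these relatives also belong to the pallial, hedgehog, ventral or diencephalon lists.

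Of the signals that act on the members, the hedgehog list had the most calls. In DKO against WT 5 of 14 hedgehog genes fell and none rose, among them the co-receptors Gas1 (-0.78), Cdon (-0.62) and Boc (-0.46). By edgeR no hedgehog gene was called in Smarca1 KO against WT, although DESeq2 called 6, all lower, and 6 reached an unadjusted p under 0.05. None was called in DKO against Smarca1 KO (1 at an unadjusted p under 0.05, and 0 by DESeq2). Summed hedgehog-list levels were 932 to 960 CPM (WT), 684 to 833 CPM (Smarca1 KO) and 660 to 762 CPM (DKO). The list's mean centred log2 CPM, by contrast, overlapped between all groups. It was -0.042 to 0.13 (WT), -0.17 to 0.074 (Smarca1 KO) and -0.18 to 0.093 (DKO). In DKO against WT 9 of the 14 genes were below 0 and 5 above, up to 0.98. Of 18 hem Wnt and BMP genes, the Wnt antagonist Nkd1 (-0.39) and the ligand Wnt7b (-0.35) fell in DKO against WT, and against Smarca1 KO Wnt7b fell by 0.42 and Wnt5a rose by 0.53. Of 15 tested FGF genes 1 was called: the receptor Fgfr3, which is high caudally, fell by 0.63 in DKO against WT. Of the 15, 10 lay above 0 there and 5 below (median 0.15). In Smarca1 KO against WT 10 also lay above 0 (median 0.35) and 5 below. With DESeq2 there were 4 FGF calls in Smarca1 KO against WT, 2 of them rises, and 2 in DKO against WT, none a rise. Summed FGF-list levels were 642 to 666 CPM (WT), 571 to 637 CPM (Smarca1 KO) and 568 to 605 CPM (DKO). Of 6 antihem genes, Tgfa, an EGF receptor ligand, rose by 1.06 in DKO against WT.

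Ventral telencephalon markers were present in all libraries and summed higher in the DKO libraries than in any other. Their mean centred log2 CPM did not separate the mutants in this way, at 0.11 in Smarca1 KO replicate 3 and 0.089 to 0.28 in DKO. Their summed level was 1145 to 1336 CPM (WT), 1271 to 1359 CPM (Smarca1 KO) and 1383 to 1610 CPM (DKO). In DKO against WT all 20 had a log2 fold change above 0 (median 0.26), and 3 were called: Six3 rose by 0.44, and the interneuron regulators Dlx1 and Dlx5 each rose by 0.30. In DKO against Smarca1 KO 19 of 20 were above 0 (median 0.16) and none was called by edgeR or DESeq2 (6 at an unadjusted p under 0.05). Sp8 is made by some of these cells, and the part of ventral tissue in its level was not tested. Of 9 intermediate progenitor genes, 4 fell in DKO against WT and 3 against Smarca1 KO, among them the proneural factors Neurog1 (-1.11 and -0.75) and Neurod4 (-1.52 and -1.56).

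Markers of other cells were read for the same libraries. Of 8 Cajal-Retzius genes, Calb2 (1.07) and Trp73 (0.39) rose in DKO against WT, and of 12 projection neuron genes Stmn2 rose by 0.44. Of those 12, 8 were below 0 in DKO against WT and 4 above (median -0.049), and DESeq2 called 3, all higher. In Smarca1 KO against WT 11 were above 0 (median 0.18), with Stmn2 at 0.45. None was called there by edgeR, and 1 by DESeq2. Of 7 microglia genes, 3 rose in DKO against WT and 2 against Smarca1 KO, from a low summed level of 34.7 to 36.9 CPM in WT to 47.2 to 58.5 CPM in DKO. No meninges, endothelium or diencephalon gene was called by edgeR or DESeq2 in any comparison, and at an unadjusted p under 0.05 there were only 2, both diencephalon genes in DKO against Smarca1 KO. Hba-a1, 1 of 7 blood genes, fell in DKO against WT by 0.83. Of 7 eye genes 1 was tested, Mitf, which rose by 0.66 in DKO against WT, and the list summed to 3.0 to 6.25 CPM.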

How the data were processed

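RNA-seq of 9 libraries was analysed from 1 deposited transcript table per library. Per the submitters' processing notes, the authors used Salmon 1.4.0 and build mm10 (the notes list DESeq2 with no role). Per the file headers, each deposited table gives estimated counts (reads divided among matching transcripts) and TPM. Neither transcript index nor strand setting is given in the sources used here. Of 116546 transcripts, 115977 matched GENCODE M21, and the unmatched held 0.104% to 0.116% of reads. Estimated counts were summed to genes and rounded.

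edgeR 4.0.16 (limma 3.58.1, R 4.3.3) was fitted to all 9 libraries with group means and no covariate, with TMM factors of 0.991 to 1.02. After filterByExpr, 15773 genes remained. Quasi-likelihood F tests were adjusted by Benjamini-Hochberg over those genes. All adjusted p-values of genes and transcripts are from edgeR unless DESeq2 is named. Log values for ratios and likeness used a prior count of 2. The fit was tested on simulated data.

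Alternatives were other scalings, no low-count filter, effective-length offsets, DESeq2 1.42.0, fits of 2 groups, a Y-linked covariate, a replicate block, each library left out, and the 2 meninges-rich libraries left out. The transcript fit was added after seeing the data. Named genes were the members, the targeted genes, and up to 3 called genes per list and comparison by smallest p (or the smallest p where none was called). The 3 genes outside the set most like each called member were also named. Smarca1 was added after its values were seen. The members and lists were chosen with earlier results of these data known. Promoters are from RefSeq (GRCm38.p6).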

Additional observations from a re-analysis of the deposited data

How the results depend on the processing

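In the comparisons in which a member was called, its log2 fold change did not change sign under any alternative run. Where a member was not called some did, such as Lhx2 in DKO against Smarca1 KO (-0.28 to 0.12). In DKO against Smarca1 KO, 0 members were called (2 in the report) with effective-length offsets, with the Y-linked covariate, without Smarca1 KO replicate 1 and DKO replicate 1 together, and with only the 2 groups in the fit. Leaving out 1 library gave 0 to 3: 0 without Smarca1 KO replicate 2 or DKO replicate 2, 3 without Smarca1 KO replicate 3, and 1 without any other. Calls over all genes, 692 in the report, were 389, 11, 398 and 181 under those 4 settings, 1126 with DESeq2, and 286 (without DKO replicate 2) to 795 (without Smarca1 KO replicate 3) with 1 library out. In DKO against WT, 0 members (6 in the report) and 6 genes (1887) were called with the Y-linked covariate, and 3443 genes with only the 2 groups. Leaving out 1 library gave 2 to 8 members and 450 (without WT replicate 1) to 3178 genes, with the highest values, 8 and 3178, without Smarca1 KO replicate 3. In Smarca1 KO against WT, 0 members (1 in the report) were called with effective-length offsets and with the replicate block, and 5 with DESeq2 and without the 2 meninges-rich libraries. Calls over all genes there, 53 in the report, were 90 with no filter on low counts, 29 with the block, 607 without the 2 libraries and 693 with DESeq2. Leaving out 1 library gave 0 members (any WT library) to 1 and 14 (without WT replicate 2) to 72 genes. The cause of these shifts was not tested. A fit with fewer libraries has fewer degrees of freedom, and calls rose in some such fits and fell in others. Group accounted for R2 = 0.771 of the Y-linked covariate, which lay between 5.80 and 6.00 (mean log2 CPM), so a fit with it can hardly tell the 2 apart. With it, DKO against WT was -0.39 for Emx1, -0.27 for Lhx2, -0.15 for Nr2f1, -0.12 for Gli3, -0.039 for Dmrta2, 0.26 for Sp8 and 0.029 for Emx2. Same-numbered libraries of different groups correlated from -0.27 to 0.63, over 0.1 in 2 of 9 pairs. Pairs with other numbers gave -0.63 to 0.38, over 0.1 in 7 of 18. The 2 same-numbered pairs over 0.1 were Smarca1 KO with DKO, for replicate 1 (0.63) and replicate 3 (0.42). Values were centred within groups of 3 libraries, so this check cannot decide whether the numbers pair the libraries. With the replicate block, 2, 5 and 0 members and 529, 1745 and 29 genes were called in the order in which the comparisons stand above, and the adjusted p of Nr2f1 in the last was 0.0590. With it, in DKO against WT, Emx2 was called (adjusted p = 0.0434), and Sp8 (0.0587) and Nr2f1 were not. None of 189 alternative values of the 27 ratios moved by the larger group SD. Leaving out 1 of 3 libraries cannot shift a mean that far, and the only other alternative changed the prior count. These alternatives were therefore no test of how steady the ratios are. Members had at least 679 counts per library. Neither depth nor the number of libraries was tested as a limit.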
